A study of Mus musculus with 2 samples.

Results

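The genes of the cytosolic ribosomal proteins were examined across the immune cells of the mouse liver. Members were the rows of the count table whose symbol begins with Rpl or Rps and a digit, together with Rpsa, Rplp0, Rplp1 and Rplp2. Pseudogene rows and the S6 kinases were left out. The rule gave 86 of 13528 genes. Of these, 77 encode core proteins (46 of the large and 31 of the small subunit), 8 are paralogous copies (Rpl10l, Rpl22l1, Rpl36al, Rpl39l, Rpl3l, Rpl7l1, Rps27l and Rps27rt), and Rps19bp1 encodes a nucleolar binding partner of Rps19 rather than a ribosomal protein.

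CD45+ liver cells were captured in 2 libraries on microwell beads (BD Rhapsody, poly-A capture with unique molecular identifiers, UMIs), and mice of 2 genotypes were pooled in each and told apart by sample tags. The TG genotype is dnTGFβRII, a transgene in which the mouse Cd4 promoter drives a dominant negative form of the human type II TGF-β receptor. TG mice shared their capture with IFN-γ ARE-Del-/- mice. WT mice were C57BL/6, and shared theirs with P40-/-IL-2Ra-/- mice. The labels give an age of 10 weeks for both, the study's methods give a younger one for TG and B6 mice used to prepare liver mononuclear cells, the strain was C57BL/6 in both pools, and the number of mice per pool was not given. As a model the transgene is limited by its promoter, which is used to drive expression in T cells. With 1 library per genotype there is no replicate check, the effect of genotype cannot be told apart from that of the capture, and no test of a genotype difference was possible. Intervals in brackets are exact 95% intervals that cover counting error only.

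The ribosome consists of a large and a small subunit, each built from ribosomal RNA and many proteins, most of which are present once per ribosome. The messenger RNAs of these proteins usually begin with a C followed by a run of pyrimidines, the 5′ terminal oligopyrimidine tract, through which mTOR signalling and the repressor Larp1 set their translation and stability together. Resting naive lymphocytes keep large stores of these messengers, whereas mature granulocytes make little protein and carry few.

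The starts of some of these genes are shown because the messengers are known for a shared leader. Promoter windows from RefSeq (build GRCm38.p6) matched 66 of the 86 genes, 57 of them core. Each line below holds 15 bases before the annotated start and 15 from it on, 5′ to 3′ on the gene's strand, and capitals mark the longest run of C and T in the window. Rps24 and Rps27l have a further annotated start, and the first listed is shown. Rps6 and Rps27 are small subunit proteins with a run across the start, Rps24 is among the most abundant members, Rps9 stood out in granulocyte-like cells, Rpl14 and Rpl37 differed between the libraries in opposite directions, and Rps27l and Rps10 had the largest differences among members of low level.
Rps6 (chr4:86857353-86857382, minus strand): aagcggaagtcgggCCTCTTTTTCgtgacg
Rps27 (chr3:90213634-90213663, minus strand): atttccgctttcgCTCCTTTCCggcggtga
Rps24 (chr14:24490663-24490692, plus strand): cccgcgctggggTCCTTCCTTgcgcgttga
Rps9 (chr7:3704026-3704055, plus strand): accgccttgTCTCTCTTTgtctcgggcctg
Rpl14 (chr9:120571502-120571531, plus strand): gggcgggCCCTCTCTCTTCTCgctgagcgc
Rpl37 (chr15:5116598-5116627, plus strand): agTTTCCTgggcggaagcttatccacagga
Rps27l (chr9:66946071-66946100, plus strand): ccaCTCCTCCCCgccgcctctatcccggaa
Rps10 (chr17:27635230-27635259, minus strand): gcgccgcgcacgCCCCTTCCTTTCCagcct

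A run of at least 8 pyrimidines lay within these 30 bases in 25 of the 57 core genes (43.9%) and in 13.9% of the 27025 genes with a window. A C at the annotated start with pyrimidines at the next 4 bases was found in 13 of 57 (22.8%) against 3.01% of all genes. The longest run in the Rpl37 window has 6 bases and lies upstream of the annotated start. Between 250 bases before and 50 after the start, CTTCCG on either strand was held by 40 of 57 core genes (70.2%) and 18.8% of all genes, ATGGCG by 16 (28.1%) and 10.2%, and CACGTG by 6 (10.5%) and 8.09%. A match describes these letters and does not show that a factor binds.

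Depth was 18498477 UMIs in 4647 TG cells and 22216379 in 7282 WT cells, with medians of 3298 and 2653.5 UMIs per cell. The libraries shared 36 cell indices among the named cells. At least 2 UMIs of B lineage genes together with at least 2 of T lineage genes were seen in 9.30% of TG and 4.41% of WT cells, and no doublet caller was run. The neutrophil gene S100a8 stood at 107 CPM in CD8αβ T cells of TG and 39.5 in those of WT, and the part of RNA from other cells in the values below was not tested. Cell types are the names the authors deposited. In the cells named monocytes the neutrophil genes Retnlg (10455 CPM in TG, 10254 in WT) and Csf3r (2862 and 2960) were high. Of the monocyte genes, the receptor Ccr2 stood at 21.7 and 40.2 CPM there, and Ly6c2 at 436 and 297. Ly6c2 was higher in neutrophils (2459 and 2514) and in CD8αβ cluster 13 (2817 and 2306), so it does not mark monocytes alone here. CPM is UMIs per 1000000 UMIs of the cells summed. The cells named monocytes are called granulocyte gene-rich below. In the cells named macrophages, C1qa and C1qb were listed at 0 in TG (247 and 402 CPM in WT). A gene listed at 0 can still have UMIs in a few cells, because of a filter. Ly6c2 (781 and 527 CPM) and Ccr2 (559 and 564) were present there in both libraries. The cells named macrophages lay in cluster 15 (89 TG and 158 WT cells), cluster 22 (20 and 80) and, in WT, cluster 27 (23 cells). Cluster 27 held most of the C1qa (2046 CPM). The cells named CD8αα T held Cd8a (984 and 1104 CPM) with little Cd8b1 (35.5 CPM in TG).

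Ribosomal protein genes took 2605224 UMIs in TG and 3275979 in WT, that is 14.1% (14.1 to 14.1) and 14.7% (14.7 to 14.8) of all UMIs. A share of UMIs does not give molecules per cell, because it also falls when other transcripts rise. The most abundant member was Rplp1, an acidic protein of the stalk that recruits elongation factors, at 4268 CPM in TG and 4645 in WT. Next came Rps24 (3780 and 4424 CPM), Rpl23 (3471 and 4010), Rps29 (3636 and 3797) and Rpl39 (3342 and 3339). The UMIs of the core genes ranged from 84.0 to 4268 CPM in TG and from 28.8 to 4645 in WT, with medians of 1778 and 1796, and 59 of the 77 exceeded 1000 CPM in each library. The lowest core genes were Rps10 (84.0 and 28.8 CPM) and Rpl13a (105 and 135). Both are overlapped on the same strand by another annotated gene (a read-through of Rps10 and Nudt3, and Gm45713), so the assignment of their reads is uncertain. Overlap with an annotated gene on either strand, snoRNA genes included, was found for 46 of the 77 core genes. The 8 copies and Rps19bp1 together made up 0.624% of the members' UMIs in TG and 0.488% in WT. Rpl39l stood at 3.14 and 2.43 CPM, Rpl36al at 15.5 and 12.8, and Rps19bp1 at 10.5 and 13.1. Rpl3l, the muscle copy of Rpl3, had 25 and 24 UMIs in all, and Rpl10l, a copy known from the testis, had 14 UMIs in TG and was listed at 0 in WT. Genes listed at 0 in a genotype had UMIs in at most 9 of its cells in the library's own counts, so this 0 can come from a filter. The remaining 84 members had at least 100 UMIs over both libraries.

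The share of ribosomal protein UMIs ranged over cell types from 2.60% (neutrophils, TG) to 19.6% (CD4 T cells, WT), for types with at least 50 cells in the library. In TG the order was immature B cells (18.02%), mature B cells (17.1%), CD8αβ T cells (16.3%), CD4 T cells (15.9%), NKT cells (14.6%), cells named macrophages (11.2%), NK cells (10.5%), cells named CD8αα T (10.1%), granulocyte gene-rich cells (3.56%) and neutrophils (2.60%). In WT it was CD4 T cells (19.6%), CD8αβ T cells (18.5%), immature B cells (17.5%), mature B cells (15.2%), NKT cells (14.9%), γδ T cells (14.01%), cells named macrophages (12.2%), cells named CD8αα T (10.3%), plasmacytoid dendritic cells (10.2%), NK cells (10.2%) and granulocyte gene-rich cells (3.79%). Of these neighbours, cells named CD8αα T, plasmacytoid dendritic cells and NK cells in WT had overlapping counting intervals and are not ordered. Single cells spread more widely than the sums differed. The interquartile ranges of the per-cell shares overlapped between neighbours in this order, except between NKT cells and cells named macrophages in TG and above the granulocyte gene-rich cells in both libraries.

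Granulocyte gene-rich cells stood below the lymphocytes for nearly every member. Their median cell had 2.20% (quartiles 1.904 and 2.75) of its UMIs in these genes in TG and 2.32% (1.74 and 2.93) in WT. The summed shares, 3.56% and 3.79%, lay above these upper quartiles. Summed values of this class, here and below, therefore do not describe its median cell. Mitochondrial transcripts took 0.706% and 0.744% of the UMIs of the median cell there, against 5.35% and 7.03% in CD8αβ T cells. Their part in the low share was not tested. Against all other cells of the same library, 82 of 83 members were lower by at least 0.5 on the log2 scale in both TG (66.5% of all genes were) and WT (64%). None was higher (15.2% of all genes were in each library). The median log2 ratio of the members was -2.14 in TG and -2.06 in WT, beside -1.10 and -0.97 over all genes. Neutrophils, with 54 cells in TG, had the same count of 82 lower (63.9% of all genes). Among the other types with many lower members, NK cells had 34 of 83 in TG and 54 in WT (18.8% of all genes in each), and cells named CD8αα T had 42 in TG (17.6%) and 46 in WT (22.1%), with 0 higher in either (19.3% and 19.8%). Plasmacytoid dendritic cells in WT had 53 lower (32.3%), and cells named macrophages had 17 lower in TG (28.9%) and 15 in WT (33.9%), below the background.

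In the other direction 20 of 83 members were higher in TG immature B cells (13.5% of all genes) and 4 in WT (12.9%), with 0 lower (29.8% and 29.3%). CD4 T cells had 2 higher in TG (12.5%) and 19 in WT (7.54%), CD8αβ T cells 6 in TG (12.2%) and 13 in WT (8.01%), and mature B cells 9 in TG (14.4%) and 1 in WT (12.6%). Of these counts, only those of immature B cells in TG and of CD4 and CD8αβ T cells in WT were above the background. The median member stood at 0.38 in TG and 0.25 in WT in immature B cells (-0.16 in each over all genes). Mature B cells gave 0.33 and 0.04 (-0.13 and -0.11), CD8αβ T cells 0.31 and 0.39 (-0.06 and -0.10), and CD4 T cells 0.17 and 0.43 (0.01 and -0.11). In cells named macrophages 1 was higher in TG (20.5%) and 3 in WT (18%). NKT cells stayed near the rest, with 0 lower in TG (18.2%) and 1 in WT (19%), and 0 higher in either (15.2% and 13.2%). Their median member stood at 0.07 and 0.02, beside 0.08 and 0.06 over all genes. Over all such contrasts 38 of 830 member calls were higher (4.58%, against 15.1% over all genes) and 260 lower (31.3% against 31.6%) in TG, and 47 (5.15% against 14.4%) and 255 (27.9% against 28.9%) of 913 in WT, the lower calls being near the background at this scaling. TMM scaling gave 107 higher (12.9% against 18%) and 286 lower (34.5% against 26.9%) in TG, and 125 (13.7% against 16.8%) and 256 (28% against 25.2%) in WT. Totals without ribosomal protein and mitochondrial genes gave 88 (10.6% against 14.7%) and 313 (37.7% against 32.5%) in TG and 117 (12.8% against 13.9%) and 306 (33.5% against 29.6%) in WT.

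Within the T cells the share followed the authors' clusters. CD8αβ cluster 4, whose cells carried the lymph node homing receptor Ccr7 (204 CPM in TG, 258 in WT) and the transcription factor Lef1 (400.3 and 588), had 27.6% (27.5 to 27.7) of UMIs in these genes in TG and 24.5% (24.4 to 24.6) in WT, the highest of the 14 clusters with at least 50 cells in both libraries. Cluster 13, with Lef1 at 240.5 and 339 CPM, stood at 23.8% and 22.9%. CD4 cluster 6, with Lef1 at 556 and 794 CPM, stood at 22.6% and 23.5%. Cluster 7, in which the proliferation genes Mki67 (1127 and 1035 CPM) and Top2a (1513 and 1577) were high, held 11.7% and 12.6%, and cluster 12, which held the most Ccl5, a chemokine of effector T cells, of the 14 clusters (28509 and 16259 CPM), 11.99% and 14.9%. The highest cluster exceeded the lowest lymphocyte cluster 2.74-fold in TG and 2.62-fold in WT. The interquartile ranges of clusters 4 and 7 did not overlap. In TG these ran from 25.04% to 30.1% and from 9.13% to 12.8%, and in WT from 22.3% to 27.1% and from 9.52% to 14.7%. Depth differed too, with medians of 4961 and 7454 UMIs per cell in TG and 2764 and 6614 in WT. Cluster 7 is named CD8αβ by the authors but also held Cd4, at 249 CPM in TG and 165 in WT. Cluster 4 had Cd4 at 38.8 and 14.3, and cluster 12 at 291 and 219. Cd8b1 stood at 413 and 443 CPM in cluster 7, against 1112 and 1242 in cluster 4. Whether cluster 7 holds other lymphocytes was not tested.

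**Figure D1:**
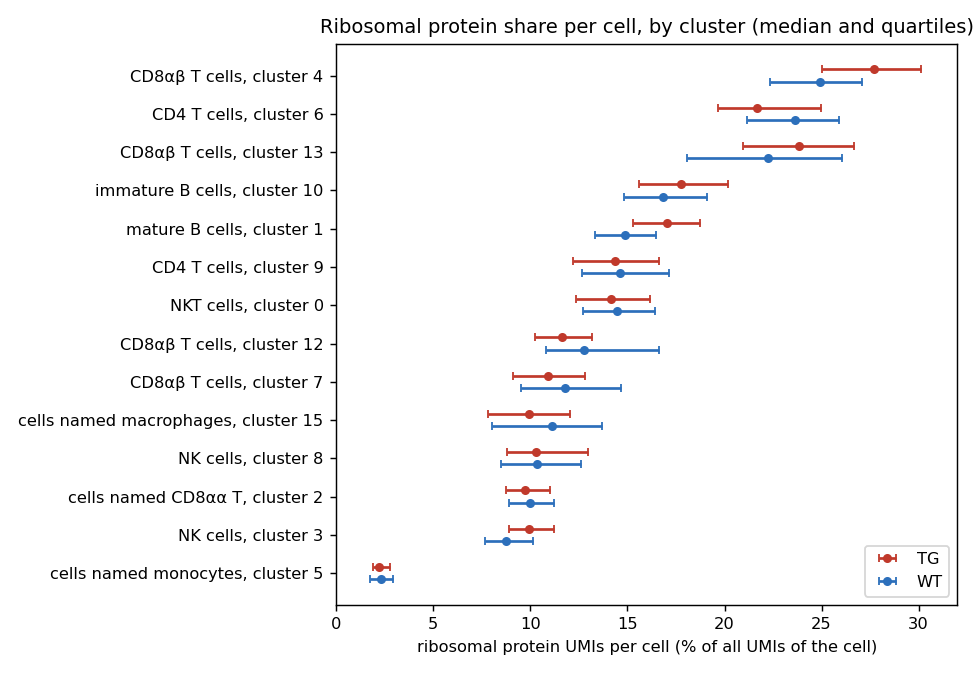
Percentage of each cell's UMIs in ribosomal protein genes (x axis) for the 14 clusters with at least 50 cells in both libraries (y axis, named by the authors' cell type), with TG in red and WT in blue. Points are medians over cells and bars run from the lower to the upper quartile. The T cell clusters 4, 6 and 13 lie above 20% in both libraries and the granulocyte gene-rich cells near 2%.

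The difference between clusters 4 and 7 ran through almost the whole set. It is given as a description, since the clusters come from these same cells. The pair was chosen after seeing the data. In TG 77 of 81 members were higher in cluster 4 by at least 0.5 (16.1% of all genes) and 2 copies were lower (41%), Rps27l and Rpl7l1. In WT 73 of 79 were higher (21.5%) and none was lower (33.4%). Rps27l was lower in cluster 4 of WT as well, at levels given below, but had too few UMIs there to be counted. The median of the members was 1.19 in TG and 0.92 in WT, beside -0.32 and -0.16 over all genes. Rps27 had the largest core ratio in both, at 1.86 (1.78 to 1.94) in TG, from 906 to 3290 CPM, and 1.66 (1.54 to 1.77) in WT. Rplp1 stood at 3472 CPM in cluster 7 and 10387 in cluster 4 in TG, and at 4032 and 9503 in WT. Rpl13a was the lowest core gene, at -0.01 (-0.33 to 0.30) and -0.20 (-0.48 to 0.08). Rps27l, the copy of Rps27, went the other way from its parent. It stood at 37.4 CPM in cluster 4 and 152 in cluster 7 of TG, a log2 ratio of -2.02 (-2.65 to -1.46). Rpl22 and its copy Rpl22l1 were both higher, by 0.98 and 0.90 in TG and 0.69 and 0.61 in WT. Against cluster 7, cluster 13 had 74 of 81 members higher in TG (15.7%) and 71 of 78 in WT (19.1%), whereas cluster 12 had 3 of 81 (20.3%) and 7 of 78 (18.5%). Within the CD4 T cells, cluster 6 over cluster 9 had 55 of 77 higher in TG (14.2%) and 45 of 78 in WT (9.27%). Against cluster 2, the cells named CD8αα T, cluster 4 had 79 of 80 higher in TG (10.5%) and 78 of 78 in WT (15.6%), and among the core genes Rps19 had the largest ratio (2.37 and 1.98) and Rpl38 the smallest (0.92 and 0.56).

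Other parts of the translation machinery were set beside the ribosomal proteins in the same contrast, without a test between the lists. Fau and Rack1, a precursor of a small subunit protein and a scaffold bound to that subunit, both fall outside the symbol rule and were higher in cluster 4, at 0.86 and 1.02 in TG and 0.81 and 1.02 in WT. Over all genes 16.1% were higher and 41% lower in TG, and 21.5% and 33.4% in WT, with medians of -0.32 and -0.16. Of 38 translation factors 9 were higher and 7 lower in TG, and 11 and 6 of the 37 with enough UMIs in WT. The elongation factor subunit Eef1b2 (1.33 in TG) and the helicase Eif4a2 (1.39 and 1.24) stood at the upper end. The helicase cofactor Eif4h (-1.15 and -1.11) stood at the lower end in both. Ribosome biogenesis factors gave 9 higher and 2 lower of 32 in TG, and 5 and 1 of 20 in WT, with Nop14 at 1.47 in TG and Nhp2 at -0.68 and -0.82. The proteins of the mitochondrial ribosome gave 4 higher and 24 lower of 50 in TG and 0 and 10 of 22 in WT, with medians of -0.45 and -0.41. Of the regulators 3 were higher and 3 lower of 13 in TG, and 3 and 2 of 11 in WT. Myc, a transcription factor that drives ribosome production, was higher in cluster 4 (1.34 and 1.30), as were Larp1 in TG (1.00) and Maf1, a repressor of RNA polymerase III, in WT (0.87). At the lower end stood Cdkn1a (-2.16) and the kinase Rps6ka1 (-1.18) in TG, and Rheb, an activator of mTOR (-0.55) and Rps6ka1 (-0.54) in WT.

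Over all cells the summed members were lower in TG than in WT by little, with a log2 ratio of -0.066 (-0.069 to -0.064). The sign depended on the cell type. Of 9 types with at least 50 cells in both libraries, 3 were higher in TG, namely mature B cells (17.1% against 15.2%, log2 ratio 0.17, 0.16 to 0.17), immature B cells (0.045, 0.036 to 0.054) and NK cells (0.040, 0.031 to 0.049), whose cells lay in cluster 3 (263 TG and 306 WT cells), cluster 8 (153 and 287) and cluster 11 (343 and 22). The other 6 were lower, led by CD4 T cells (15.9% against 19.6%, -0.30, -0.31 to -0.29) and CD8αβ T cells (16.3% against 18.5%, -0.18, -0.19 to -0.18), then cells named macrophages (-0.13, with different markers and clusters in each library as given above), granulocyte gene-rich cells (-0.088), NKT cells (-0.028) and cells named CD8αα T (-0.023). Depth per cell was higher in TG in both leading directions, with medians of 2923 against 2045 UMIs in mature B cells and 3189 against 2438 in CD4 T cells. The signs held when every cell was thinned to 1000 UMIs, with 0.18 in mature B cells and -0.28 in CD4 T cells. The CD8αβ ratio was then larger in size, at -0.29, and was -0.28 with equal weight per cell.

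The T cell classes were made up of different clusters in each library. Clusters 4 and 13 held 31.6% of the TG and 61.2% of the WT CD8αβ T cells, and cluster 6 held 24.4% and 54.1% of the CD4 T cells. As an alternative chosen after seeing the data, the TG clusters were weighted as in WT, by their share of the class's UMIs rather than of its cells. The CD8αβ ratio then changed from -0.18 to 0.045 and the CD4 ratio from -0.30 to -0.077. Within clusters the values lay on both sides of 0. Cluster 4 was higher in TG (27.6% against 24.5%, log2 ratio 0.17, 0.17 to 0.18), as was cluster 13 (0.059), whereas cluster 12 was lower (11.99% against 14.9%, -0.31, -0.33 to -0.30), as were cluster 7 (-0.11) and cluster 9 of the CD4 T cells (-0.12). In all, 6 of the 14 clusters were higher in TG and 8 lower. The main mature B cell cluster, cluster 1, had 17.2% in TG and 14.9% in WT (0.21, 0.20 to 0.22). Cluster 17, with 29 TG and 155 WT cells, went the other way (14.9% against 16.4%, -0.14, -0.16 to -0.12). Cluster 29, with 11 and 10 cells, gave 0.17 (0.12 to 0.22).

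Single members went apart from the sum. Of 84 tested over all cells, 3 were higher in TG by at least 0.5 (9.18% of 10812 genes were) and 2 were lower (7.36%). Both shares of members were below the background. Many genes of that background had far fewer UMIs than the members, so their ratios carry more counting error. The 5 highest were Rps10, Rpl37, Rps27l, Rpl29 and Rpl39l, and the lowest included Rpl21, Rpl14, Rpl30 and Rpl12. Of the 77 members with at least 100 UMIs in each of the 9 types, 7 were higher in TG in every type (Rpl17, Rpl22l1, Rpl36, Rpl37, Rps15a, Rps26 and Rps27rt), 15 were lower in every type, and 55 had both signs. The shares with 1 sign were 9.09% higher and 19.5% lower, beside 8.47% and 8.81% of the 1180 genes with as many UMIs.

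Rpl37, a zinc-binding protein of the large subunit, stood at 2172 CPM in TG and 1329 in WT over all cells, a log2 ratio of 0.71 (0.69 to 0.73). The lowest ratio was 0.56 (0.48 to 0.64) in CD4 T cells, at 2324 and 1578 CPM, and the highest 1.01 (0.96 to 1.06) in mature B cells, at 2610 and 1296 CPM. All 9 intervals lay above 0. Rps26, which contacts the messenger RNA at the exit side of the small subunit, was also above 0 in all 9 types, from 0.09 (0.02 to 0.15) in CD4 T cells to 0.55 (0.52 to 0.59) in mature B cells, and stood at 3091 and 2407 CPM over all cells. Rps10 was at 84.0 against 28.8 CPM (1.55, 1.41 to 1.68), with the uncertain assignment named above. Rpl29 gave 0.44 (0.40 to 0.48) over all cells and was the one of these with a negative value, -0.11 (-0.55 to 0.33) in granulocyte gene-rich cells. Rpl39l rested on 58 and 54 UMIs, and its interval crossed 0 (0.37, -0.19 to 0.93).

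At the lower end Rpl21, a large subunit protein, stood at 631 CPM in TG and 926 in WT (-0.55, -0.59 to -0.52), and its 9 values ran from -0.79 (-0.92 to -0.67) in CD4 T cells to -0.30 (-0.37 to -0.23) in mature B cells. Rpl14 gave -0.54 (-0.58 to -0.51) over all cells. Rpl30 (-0.43) and Rpl12 (-0.41) were lower in every type as well, although the interval of Rpl12 in mature B cells reached 0. Rps6, the substrate of the S6 kinases downstream of mTOR, was at 1802 and 2206 CPM (-0.29, -0.31 to -0.27) and below 0 in all 9 types. Its interval reached 0 in mature B cells.

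**Figure D2:**
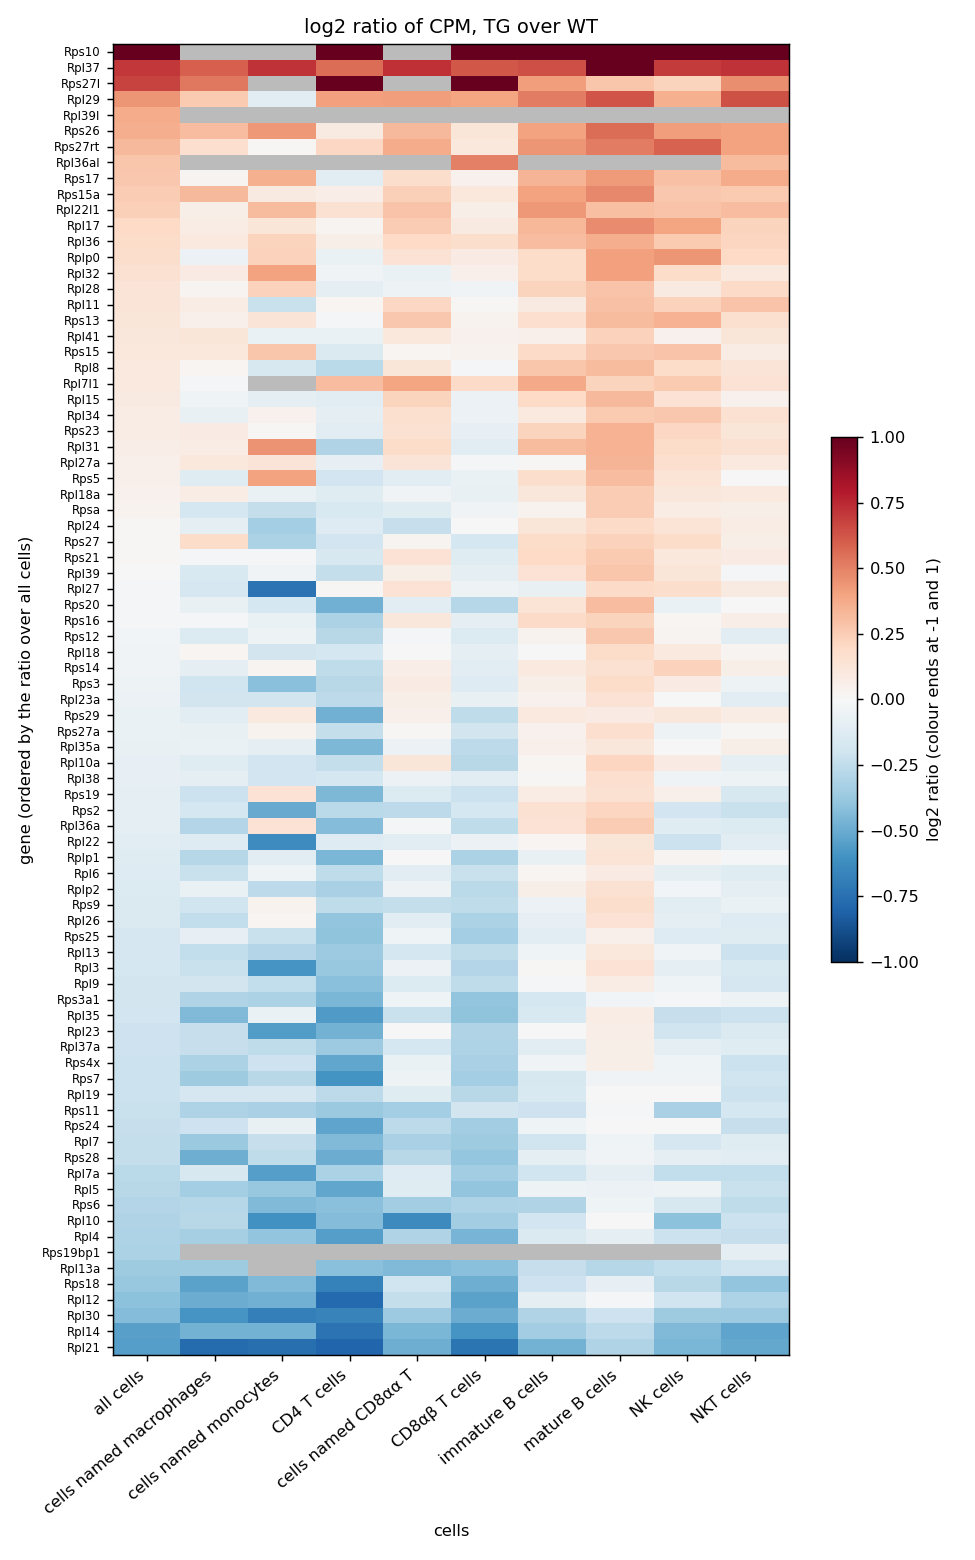
Log2 ratio of CPM, TG over WT, for 83 of the members with at least 100 UMIs over both libraries (rows, ordered by the ratio over all cells) in all cells and in 9 cell types (columns). Grey marks genes with fewer than 100 UMIs in that type, and colours end at -1 and 1. Rpl37 is red and Rpl21, Rpl14 and Rpl30 are blue in every column, while the column of mature B cells is shifted to red and that of CD4 T cells to blue.

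The members past 0.5 differed in number between types. Mature B cells had 5 of 81 higher (4.24% of all genes) and 0 lower (5.94%). In CD4 T cells 3 of 81 were higher (14.7%) and 12 lower (8.19%). For CD8αβ T cells the counts were 3 of 82 higher (10.8%) and 4 lower (7.01%), for cells named macrophages 2 of 80 (12.5%) and 4 (7.85%), and for granulocyte gene-rich cells 1 of 77 (10.5%) and 8 (11.6%). Immature B cells had 3 of 81 higher (6.78%) and 0 lower (7.31%), NK cells 3 of 81 (7.49%) and 0 (9.71%), NKT cells 3 of 83 (7.74%) and 2 (5.85%), and cells named CD8αα T 1 of 79 (8.55%) and 1 (6.03%). Rpl37 was among the higher members in all 9 types. Among the 12 of the CD4 T cells were Rpl4, Rpl5, Rpl12, Rpl14, Rpl21, Rpl30, Rpl35, Rps4x, Rps7, Rps18 and Rps24. The median member stood at 0.18 in mature B cells and -0.27 in CD4 T cells, against -0.05 and 0.06 over all genes of those cells.

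The same captures held cells with no deposited name, 5379 in the pool with TG and 16829 in the pool with WT, which include the partner genotypes. Their share of ribosomal protein UMIs was 12.8% and 15.6%. Both sets come from the same libraries, so the values are given side by side. Rpl37 was at 1983 CPM in the unnamed cells of the first pool and 1506 in those of the second (0.40, 0.38 to 0.41), Rps10 at 80.3 and 40.9 (0.97, 0.89 to 1.06), and Rps27l at 82.2 and 52.2 (0.65, 0.57 to 0.74). Rpl21 gave -0.76 (-0.78 to -0.73) and Rpl14 -0.70. Relative to the median of the 84 members, Rpl37 lay 0.77 higher in named and 0.68 higher in unnamed cells, and Rpl21 0.49 and 0.47 lower. On the same relative scale Rps26 lay 0.42 higher in named and 0.41 in unnamed cells, Rpl29 0.50 and 0.30, and Rps10 1.61 and 1.26. Of the 84 members 18 lay on opposite sides of the median in the 2 sets, among them Rpl39l (0.43 in named and -0.80 in unnamed cells, from few UMIs), Rpl10 (-0.24 and 0.17) and Rpsa (0.095 and -0.12). The median member itself was lower in the unnamed cells, at -0.28 against -0.06.

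**Figure D3:**
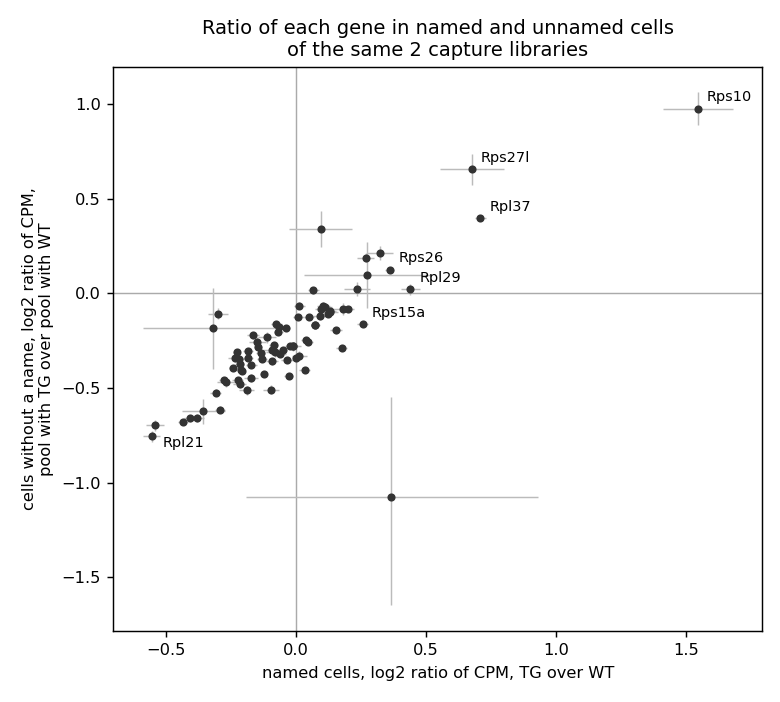
Log2 ratio of CPM for each of 83 members in named cells (x axis, TG over WT) and in cells without a deposited name (y axis, pool with TG over pool with WT), with 95% counting intervals. Rps10, Rpl37 and Rps27l lie to the upper right and Rpl21 to the lower left. The median of the members tested stands at -0.06 on the x axis and -0.28 on the y axis.

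Copies were compared with their parent genes within the same cells. Rps27l is a target of p53 in addition to being a copy of Rps27. Over all cells it stood at 66.9 CPM in TG and 41.8 in WT (0.68, 0.55 to 0.80). In CD8αβ T cells it was at 96.9 and 39.8 CPM, from 514 and 122 UMIs (1.28, 1.00 to 1.58). In CD4 T cells the values were 71.0 and 32.4 CPM (1.13, 0.60 to 1.67). Cells named macrophages held 123 and 85.0 (0.53, 0.09 to 0.96). In mature B cells (25.3 and 20.9 CPM), immature B cells and NK cells the interval reached 0. Rps27l took 5.43% (4.98 to 5.90) of the UMIs of Rps27l and Rps27 in TG CD8αβ T cells and 2.04% (1.70 to 2.43) in WT. Cluster make-up enters these class values, since clusters 4 and 13 held 31.6% of the TG and 61.2% of the WT CD8αβ T cells. Its part was not tested. In cells named macrophages Rps27l took 10.1% and 8.15%, and in mature B cells 0.914% and 0.887%. TG was higher in all 9 types, with intervals apart in 2.

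Among the 14 clusters Rps27l in TG was highest in the proliferating cluster 7, named CD8αβ by the authors, at 152 CPM (137 to 169). In WT cluster 15 was highest, at 75.04. Cluster 7 of WT had 70.3 (54.4 to 89.5), a log2 ratio of TG over WT of 1.11 (0.73 to 1.51). In TG 368 UMIs came from 186 of 319 cells, and the 3 richest cells held 6.52% of them. Cluster 13 gave 63.0 and 31.0 CPM, and the low-level cluster 4 gave 37.4 and 18.1. In cluster 12 the 2 values did not differ beyond their intervals (55.8 and 54.6 CPM). Cdkn1a, another p53 target, stood at 55.8 CPM (46.8 to 66.1) in TG and 15.98 (8.95 to 26.4) in WT in cluster 7 (1.80, 1.03 to 2.68), and Mdm2, a further target, gave 0.39 (-0.06 to 0.86). In cluster 15, of the cells named macrophages, Cdkn1a went the other way, at 149 and 308 CPM (-1.04, -1.47 to -0.64). Rps27l was at 109 CPM in TG there (0.53, -0.07 to 1.13). The 2 genes also parted in cluster 0 of the NKT cells, with Cdkn1a at -1.14 (-1.91 to -0.45) and Rps27l at 0.58 (0.18 to 0.97). In cluster 3 of the NK cells they gave 1.49 (0.61 to 2.46) and -0.23 (-0.90 to 0.42). Among the 14 clusters Rps27l was higher in TG in all but cluster 3, although several intervals reached 0. Cdkn1a had values on both sides of 0, so the 2 genes had no common direction over the clusters.

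**Figure D4:**
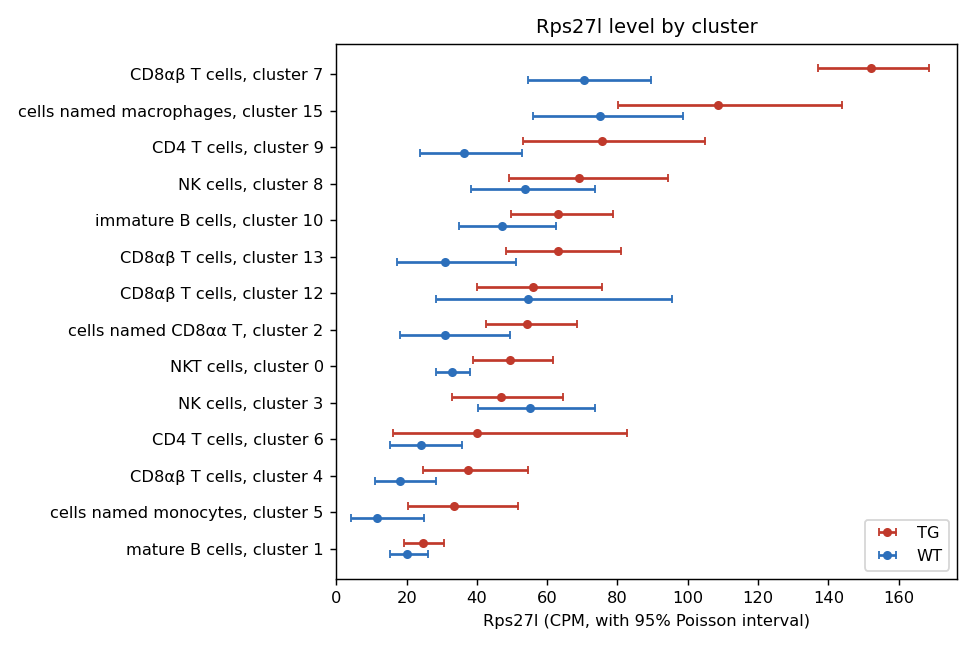
Rps27l level in CPM (x axis, bars are 95% Poisson intervals) in the 14 clusters with at least 50 cells in both libraries (y axis, ordered by the TG level), with TG in red and WT in blue. The proliferating cluster 7, named CD8αβ by the authors, has the highest TG value, 152 CPM, and mature B cells the lowest, 24.6.

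Rpl22l1 was the copy with the largest share beside its parent. It made up 37.0% (36.3 to 37.8) of the UMIs of both in TG and 31.6% (31.0 to 32.2) in WT, and was higher in TG in all 9 types, with intervals apart in 3 (immature B cells, NK cells and NKT cells). NK cells had 44.1% and 35.9%, NKT cells 35.4% and 29.0%. Rps27rt, a retrotransposed copy of Rps27, took 17.4% and 14.5% of the UMIs of itself and Rps27, and its sequence is so close to the parent's that reads may be split between them. Rpl7l1 took 4.54% and 3.64% beside Rpl7, Rpl36al 1.84% and 1.43% beside Rpl36a, and Rpl39l 0.0937% and 0.0727% beside Rpl39. Rpl3l took 10.2% (5.003 to 17.97) and 6.45% (2.83 to 12.3) beside Rpl3 in granulocyte gene-rich cells, against 0.124% and 0.0877% over all cells, but from 10 and 8 UMIs. Of other genes with copies or pseudogenes, Rps4x stood at 2648 CPM in TG and 3074 in WT, Rpl9 at 2116 and 2402, and Rpl10 at 519 and 639.

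Which members made up the ribosomal protein UMIs differed between types. Among 59 members with at least 100 UMIs in each type and library, the standard deviation of the log2 share over the 9 types had a median of 0.15, and the largest were Rps9 (0.55), Rps19 (0.37), Rps27a (0.36), Rpl12 (0.31) and Rps20 (0.31). Rps9, a small subunit protein, took 6.41% of all ribosomal protein UMIs in granulocyte gene-rich cells of TG and 5.88% in WT, while it lay between 1.73% and 2.49% in the other 8 types. Its level there, 2285 and 2227 CPM, was above that of NK cells (1812 and 1959), although most members were far lower. The neutrophils had 5.48% in TG, with 54 cells, and 4.36% in WT, with only 17. Rps27a, which is made as a fusion to ubiquitin, took 3.58% and 3.28% in granulocyte gene-rich cells and 1.53% in mature B cells of each library. Rps19, mutated in Diamond-Blackfan anaemia, was lowest in the cells named CD8αα T (0.686% in TG) and NK cells (0.733% in WT) and highest in immature B cells (1.43% and 1.40%). Rps20 ran from 0.976% and 1.04% in granulocyte gene-rich cells to 1.98% and 1.80% in mature B cells. Rpl12, at the base of the stalk, was lowest in cells named macrophages (0.680% and 0.876%) and highest in NKT cells (1.27% and 1.54%).

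**Figure D5:**
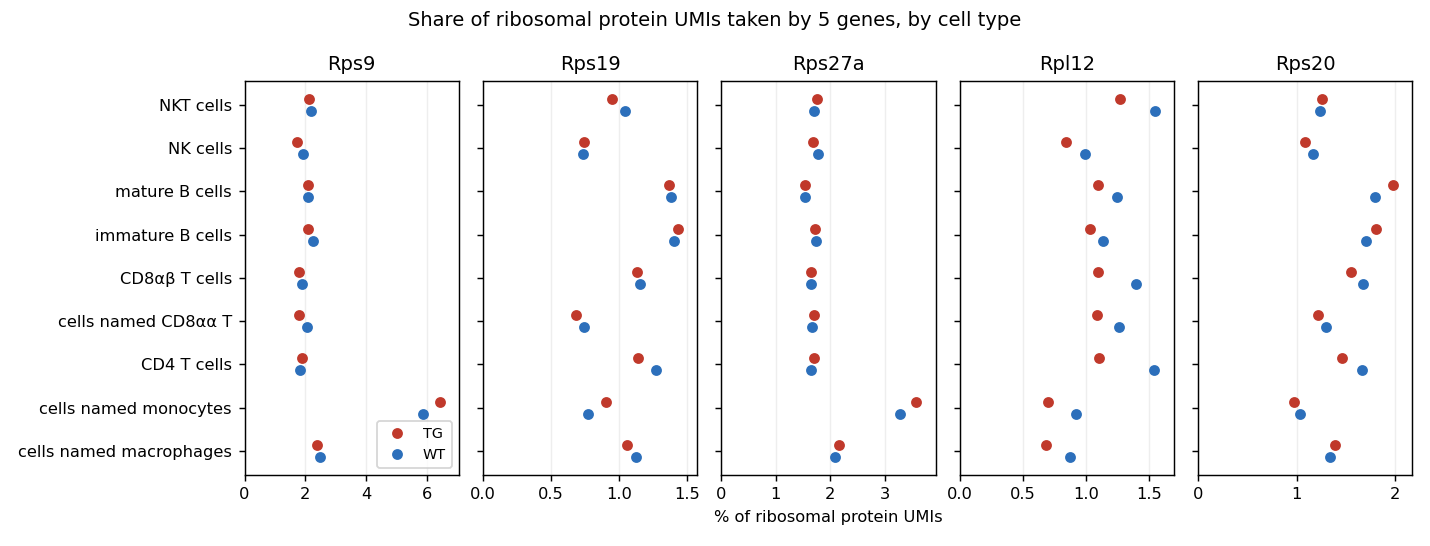
Percentage of ribosomal protein UMIs (x axis, one panel per gene) taken by the 5 members whose share varied most over 9 cell types (y axis), with TG in red and WT in blue. Rps9 is near 6% in granulocyte gene-rich cells (named monocytes by the authors) and near 2% elsewhere.

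Of the stalk proteins, Rplp1 was highest in CD8αβ T cells in TG (5365 CPM) and in CD4 T cells in WT (6968), while Rplp0, their anchor, stood at 2538 CPM in TG and 2396 in WT in CD8αβ T cells and at 969 and 876 in the cells named CD8αα T. Rplp2 was at 2474 and 2718 CPM over all cells. Rpsa, also known as the laminin receptor, ran from 234 and 276 CPM in granulocyte gene-rich cells to 2298 in CD8αβ T cells of TG and 2354 in CD4 T cells of WT. Rps27a stood at 2372 and 2484 CPM over all cells. Summed over genes, the large subunit had 1.09 (1.09 to 1.09) times the UMIs of the small subunit in each library. The ratio was highest in NK and NKT cells, at 1.13 and 1.13 in TG and 1.14 and 1.13 in WT, among the 9 types, and lowest in granulocyte gene-rich cells of TG (0.99, 0.97 to 1.02) and WT (1.04, 1.01 to 1.07), whose WT value overlapped that of mature B cells (1.04, 1.04 to 1.05).

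Over all cells 9.18% of all genes were higher and 7.36% lower by this size between the libraries. None of 38 translation factors, 45 biogenesis factors with enough UMIs or 17 regulators reached 0.5, and of 77 mitochondrial ribosomal proteins Mrpl57 (0.74) was higher and Mrps5 (-0.57) lower, with Mrpl14 (0.50) and Mrps33 (-0.50) just short of the limit. Their medians were -0.10, -0.12, -0.11 and 0.04, beside -0.06 for the cytosolic members and -0.02 over all genes. The lowest translation factors were Eif4a2 (-0.46) and the start codon factor Eif1 (-0.43), and the highest Eif3k and the elongation factor Eef2 (both 0.23). Npm1 and Nop56, nucleolar proteins of ribosome assembly, stood at -0.43 and -0.42, Nhp2 at 0.31 and Bysl at 0.37. Cdkn1a (-0.35) and Mtor (-0.34) were lowest among the regulators, Rptor (0.49) and Rps6ka1 (0.25) highest. Of the core proteins outside the symbol rule, Rack1 gave -0.06 and Fau -0.03.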

How the data were processed

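Liver CD45+ cells were captured in 2 libraries (BD Rhapsody, 3′ capture, UMIs). The authors aligned reads to mm10 with STAR in the BD pipeline (version 1.9 in the file headers), filtered cells and genes, and deposited a table of raw UMI counts per gene and cell. Per-cell mitochondrial percent values in the deposited metadata were used as given by the authors, as were cell type names and clusters. Depth was 18498477 UMIs in TG and 22216379 in WT.

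UMIs were summed over the cells of a library and type or cluster (Python 3.11.15, numpy 2.4.6, scipy 1.17.1, pandas 2.3.3). Shares have exact Clopper-Pearson, CPM exact Poisson and ratios exact conditional binomial 95% intervals, which cover counting error only. For counts of genes past a log2 ratio of 0.5, a pseudocount of 0.5 UMIs was added and at least 100 UMIs were needed over both profiles. This code was tested on simulated data. The 7 pseudogene rows took 0.121% and 0.0993% of UMIs. Gene positions and overlaps come from GENCODE vM21. Antibody and sample tag columns were not used.

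Members, lists, clusters contrasted and Rps27l partner genes were chosen with earlier results of these data known. Genes named were the 5 highest and lowest in level and in TG over WT ratio, the 5 with the most varying share, paralogues, stalk proteins, Rpsa, Rps27a, Rps6, Rps19bp1, and the 2 highest and lowest of each list, and others (such as Rps26, the members of single type lists, Rpl7l1 in the cluster contrast, Rpl38, Mdm2 and Cdkn1a by cluster) were named after their values were seen. Alternatives were other scalings (TMM of edgeR 4.0.16), equal weight per cell, thinning, the library files, leaving out cells of mixed lineage, other thresholds and core genes only. Values of some genes under this rule are not reported here.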

Additional observations from a re-analysis of the deposited data

Results flagged for a closer look

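The summed ribosomal protein genes went in opposite directions in 2 cell types under the same contrast of TG over WT. The log2 ratio was 0.17 in mature B cells and -0.30 in CD4 T cells, with 1 library per genotype, so the difference between the types was not tested. Thinned to 1000 UMIs per cell the values were 0.18 and -0.28, and with the WT cluster make-up the CD4 value was -0.077.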

How the results depend on the processing

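No paired analysis was possible because each genotype has 1 library so the groups share fewer than 2 replicate numbers. Of 9 cell types, 3 were higher in TG under 6 other scalings, weightings and cell sets. The ratio over all cells (-0.066) stayed negative, at -0.050 with TMM scaling, -0.091 with totals without ribosomal protein and mitochondrial genes, -0.092 with equal weight per cell, -0.096 thinned to 1000 UMIs, -0.070 without mixed-lineage cells and -0.055 as a mean over types. The CD4 ratio ran from -0.42 with TMM to -0.077 with the WT cluster make-up, and the CD8αβ ratio (-0.18) became -0.29 when thinned. The CD8αβ ratio reversed to 0.045 with the WT cluster make-up, an alternative chosen after seeing the data that changes only the cluster weights. The cause of a change was not tested for this or any other setting. The median share over 9 types (14.6% TG, 14.9% WT) became 14.2% and 14.6% with equal weight per cell, 15.4% and 15.8% without mitochondrial genes, and 14.5% and 14.8% for core genes, and 14.9% in WT without mixed cells. The range over types with at least 50 cells in the library (15.4 points in TG with its neutrophils, or 14.5 over the 9 types, and 15.8 in WT) became 16.9 and 17.2 without mitochondrial genes, 16.4 in WT with equal weight per cell, and 15.1 in TG without mixed cells. Members past the limit between libraries (3 higher, 2 lower) became 10 and 13 at 0.25 (20.1% and 20.5% of all genes), and 1 and 0 at 1 (3.35% and 2.16%). Between types, higher calls (38 TG, 47 WT, beside 15.1% and 14.4% of all genes) became 107 and 125 with TMM (18% and 16.8%), 88 and 117 with the reduced totals (14.7% and 13.9%), 202 and 216 at 0.25 (26.9% and 25.6% of all genes over the same contrasts), and 0 and 3 at 1 (5.92% and 5.9%). Lower calls (260 and 255, beside 31.6% and 28.9%) became 166 and 89 at 1 (20.9% and 17.4% of all genes). The subunit ratio became 1.09 with equal weight in both libraries, and the Rps27l share in TG 3.35% without mixed cells. Between the libraries over all cells, TMM gave 1 regulator and 2 mitochondrial ribosomal proteins higher, and the reduced totals 2 of the latter lower. These scalings moved every log2 ratio of that contrast by 0.016 and -0.025. The share of all genes past the limit under them is not given here, so these counts have no background. Depth limits the low copies most, and the spread between mice was not measured.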
